A study of Mus musculus with 75 samples.

Results

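Ribosome biogenesis and MYC were followed in mouse gastrocnemius muscle through 34 genes, picked by symbol from the 13856 genes of the deposited expression table: Myc itself and 33 genes whose products make, modify or assemble ribosomal RNA and ribosomal subunits. All 34 were found once each, and all had a mean log2 value of at least 1 over the 73 libraries used. Bulk RNA sequencing was done on muscle of Balb/c mice of both sexes; the design text gives no readable age. C26 is a mouse colon carcinoma line that wastes muscle in its host. Tumour mice carried C26 cells injected on both sides and tumour-free controls received PBS (phosphate-buffered saline), with muscle taken at day 25. From day 12, separate tumour arms received 5-fluorouracil, paclitaxel or cisplatin at 75% of the maximum tolerated dose in 2 cycles, while the PBS and C26 saline arms received saline. No arm gave a drug to tumour-free mice, so a drug effect on muscle and one through the tumour cannot be told apart. Females gave 7 libraries for PBS, 7 for C26 saline, 8 for 5-fluorouracil, 7 for paclitaxel and 6 for cisplatin. Males gave 8, 8, 8, 6 and 8 in the same order. The labels do not say that each library came from a separate animal, so the p-values measure the spread between these libraries.

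Ribosomes are built in the nucleolus, where RNA polymerase I transcribes ribosomal DNA, small nucleolar ribonucleoproteins (snoRNPs) modify the transcript, and the small and large subunit assembly factors fold and cut it. MYC is a transcription factor that dimerises with MAX, binds E-boxes (CACGTG), and is known to raise transcription of many of these factors. Growing muscle uses this pathway to raise its capacity for protein synthesis.

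The sequences shown are the E-boxes in the RefSeq promoter windows, since the E-box is the sequence through which MYC acts. The windows run from 250 bases before to 50 bases after each gene start in GRCm38.p6, which is not the GRCm39 build named for the deposited values. A window was in the table for 28 of the 34 members (Bop1, Rrs1, Rrp12, Myc, Fbl and Npm1 had none), and 7 of the 28, or 25%, held CACGTG, a motif that reads the same on both strands. Of the 10413 genes of the expression table with a window, 11.5% held it. The windows come from the C57BL/6J reference, not from Balb/c mice. Capitals mark the motif in 30-base stretches, each written 5′ to 3′ on the strand of the gene.
Nop2: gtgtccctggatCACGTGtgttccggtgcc
Pes1: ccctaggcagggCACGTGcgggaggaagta
Wdr43: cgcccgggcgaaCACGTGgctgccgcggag
Tsr1: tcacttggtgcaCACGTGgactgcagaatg
Ltv1: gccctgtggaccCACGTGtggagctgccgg
Utp20: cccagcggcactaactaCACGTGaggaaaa
The stretch of Nop2 lies at chr6:125131811-125131840 on the plus strand, 60 bases before the start, and is the one of the 6 upstream of it. The others lie downstream of the start, within 38 bases of it: Pes1 at chr11:3963965-3963994 (plus), Wdr43 at chr17:71616220-71616249 (plus), Tsr1 at chr11:74898092-74898121 (plus), Ltv1 at chr10:13193092-13193121 (minus) and Utp20 at chr10:88826765-88826794 (minus). Mybbp1a was the seventh gene with the motif. In tumour-bearing males, Wdr43, Tsr1, Pes1 and Mybbp1a rose while Nop2, Ltv1 and Utp20 did not pass the test. In the same comparison 13 of all 34 members and 13.1% of all genes rose. A link between the motif and the rise was not tested. A motif in such a window is a description and shows no binding.

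Depth and a leaning towards GC-rich transcripts can bear on the results, and both were estimated from the deposited values. The libraries held an estimated 11.4 to 40.5 M counts each, median 22.5 M, and the lowest estimated count of any member in any library was 28. In 19 of the 73 libraries gene levels leaned towards GC-rich transcripts, with a GC slope above 0.1. The GC slope was that of a library's gene deviations per SD of transcript GC content, with log2 transcript length in the same fit. These high-slope libraries also held a lower median share of mitochondrial reads, 2.58% against 10.5% in the others. They were spread unevenly, with 4 of 6 male paclitaxel, 4 of 8 male 5-fluorouracil, 2 of 8 male cisplatin, 2 of 8 male PBS and 0 of 8 male C26 saline libraries. Among females there were 2 of 7 PBS, 1 of 7 C26 saline, 2 of 8 5-fluorouracil, 2 of 7 paclitaxel and 0 of 6 cisplatin. The transcripts of the members ranged from 42.1% GC (Npm1) to 58.2% GC (Rrp9). Values without the high-slope libraries therefore stand beside many of the member results below, but not beside those of the other gene lists. All 10 fast skeletal muscle markers were measured, and their summed level on the linear scale was 102500 to 308000 per library, against 44.0 to 246.5 for macrophage markers. Cell number and RNA per cell cannot be told apart in bulk tissue.

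The first comparison asked how a C26 tumour changed these genes in muscle that received no drug. In males, 13 of the 34 members rose and none fell. Myc, the helicase Ddx21 and the small subunit factors Wdr43 and Tsr1 had the smallest adjusted p. Of all genes, 13.1% rose and 13% fell. The median member change was 0.27 on the log2 scale against 0.00 for all genes, and 32 of 34 members had a positive estimate. Library by library, the median difference of the members from the PBS mean was -0.06 to 0.51 in male C26 saline against -0.10 to 0.08 in male PBS, so the arms overlapped. Myc had a log2 level of 1.10 to 1.94 (median 1.40) in the 8 male PBS libraries and of 2.18 to 3.34 (median 2.92) in the 8 C26 saline libraries. Every tumour library therefore lay above every PBS library, a separation seen in 2.74% of all genes. The increase of Myc was 2.52-fold, or 1.34 ± 0.23 (SE) on the log2 scale, with limma's adjusted p = 4.47e-06. It stayed called in all 7 alternative settings and in all 16 fits that left out 1 library.

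**Figure D1:**
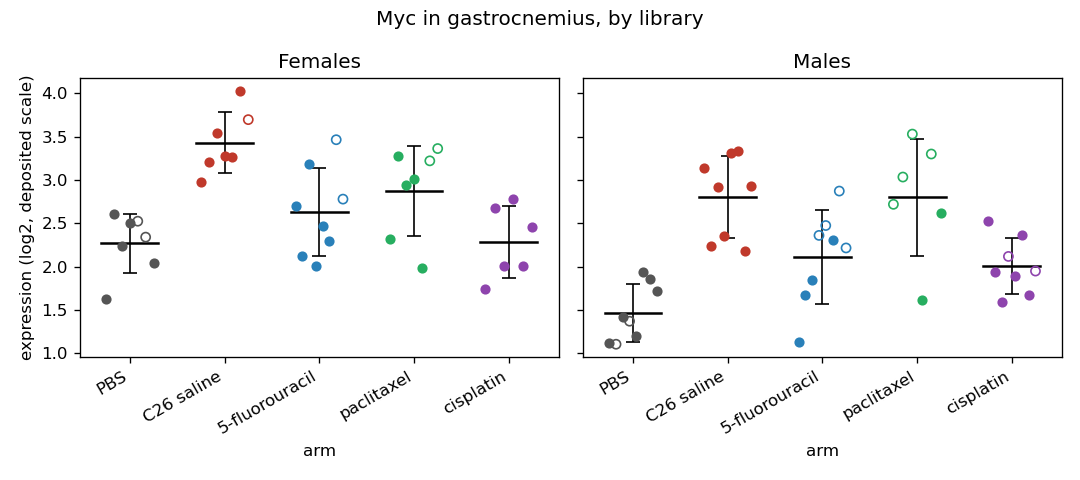
Myc expression (log2, deposited scale) in each library, by arm, females left and males right. Filled points are libraries with a GC slope at or below 0.1 and open points are above it; the bar is the mean and the whisker the SD. In both sexes all C26 saline libraries lie above the PBS libraries, and the male paclitaxel libraries spread from 1.61 to 3.53.

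Ddx21, an RNA helicase of the nucleolus that acts in ribosomal DNA transcription and RNA processing, spanned 5.14 to 5.73 (median 5.46) in male PBS and 5.67 to 6.73 (median 6.16) in male C26 saline libraries. The ranges overlapped only at their edge. It rose by 0.67 ± 0.14 log2 (adjusted p = 0.000149, limma). Wdr43, a small subunit processome protein, went from 4.20 to 4.71 in PBS to 4.62 to 5.50 in C26 saline, and rose by 0.58 ± 0.13 (adjusted p = 0.000392). Tsr1, needed for 40S maturation, went from 4.38 to 4.89 in PBS to 4.56 to 5.76 in C26 saline, and rose by 0.53 ± 0.13 (adjusted p = 0.000730). The tumour libraries of Tsr1 spread widely (SD 0.45), and 6 of 8 lay above the PBS mean.

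The other risers covered several steps of the pathway. The 3 nucleolar phosphoproteins and chaperones all rose: Npm1, a nucleolar chaperone that helps ribosome assembly, by 0.68 ± 0.19 log2; Ncl, which coats nascent ribosomal RNA, by 0.43; and Nolc1, which binds snoRNPs, by 0.29. Of the 8 large subunit factors, 4 rose: Gnl3 (nucleostemin) by 0.67, Rrs1 by 0.45, Pes1, a member of the PeBoW complex, by 0.32, and Noc2l by 0.23. Of the 4 RNA polymerase I and ribosomal DNA genes, Mybbp1a rose by 0.42 and Polr1a, the largest subunit of the polymerase, by 0.25. Neither snoRNP group had a called member. The box C/D proteins Nop56, Nop58 and Fbl had changes of 0.18, 0.45 and 0.29, and the box H/ACA pseudouridine synthase Dkc1 had -0.32 (adjusted p = 0.193). Some of these calls were lost when 1 library was left out: Polr1a without C26 saline replicate 3 or 5, Pes1 without PBS replicate 1 or C26 saline replicate 3 or 5, Rrs1 without PBS replicate 3 or 8 or C26 saline replicate 1 or 6, and Noc2l in 8 of 16 fits. Without the high-slope libraries, 20 members rose and 1 fell, where 18.4% of all genes rose and 18.0% fell. Dkc1 was the one that fell, by 0.41 log2 (adjusted p = 7.47e-05), and Fbl, Nop2, Bop1, Rrp9, Polr1b, Ubtf and Nob1 joined the risers. Immune markers, counted with all libraries, moved in the same arm. Of these, 6 of 6 measured neutrophil and 5 of 7 macrophage markers rose, where 13.1% of all genes rose. The summed neutrophil level was 1.22 to 11.4 in PBS and 9.32 to 31.3 in C26 saline. The summed macrophage level was 58.7 to 84.5 in PBS and 71.4 to 189.8 in C26 saline. Also 4 of 10 fast skeletal muscle markers fell, where 13% of all genes fell. The part of these cells in the result was not tested.

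In females, 2 of 34 members rose with the tumour and none fell, where 4.14% of all genes rose and 2.56% fell. Myc was 1.63 to 2.61 (median 2.34) in the 7 PBS libraries and 2.98 to 4.03 (median 3.28) in the 7 C26 saline libraries. All tumour libraries again lay above all PBS libraries, as in 1.64% of all genes. The increase was 2.23-fold, 1.16 ± 0.24 log2 (adjusted p = 0.000792, limma), and held in all 7 alternative settings and 14 fits with 1 library left out. The polymerase I subunit Polr1b went from 3.19 to 3.75 in PBS to 3.60 to 4.04 in C26 saline, so the arms overlapped. It rose by 0.38 ± 0.12 (adjusted p = 0.0454), but kept the call in only 3 of 14 fits that left out a library and lost it with the replicate number as a block (adjusted p = 0.0574). The median member change was 0.15, with 31 of 34 estimates above 0 (91.2%, against 48.4% of all genes). Among those that missed the threshold, Npm1 had a change of 0.41 (adjusted p = 0.255), Mybbp1a 0.28, Pes1 0.27, Wdr43 0.27 and Ddx21 0.26. Without the high-slope libraries 5 members rose, namely Myc, Npm1, Pes1, Nop10 and Polr1b, as did 6.97% of all genes. With all libraries, neutrophil markers rose here too, 5 of 6, as did 3 of 7 macrophage markers, where 4.14% of all genes rose. The summed neutrophil level was 1.07 to 3.80 in PBS and 5.09 to 35.2 in C26 saline. Their part was not tested.

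The sexes were compared by the interaction of sex and tumour. No member passed it, against 0.0361% of all genes. An unadjusted limma p under 0.05 was found for 1 of the 34 members (Ddx21), where 8.17% of all genes had one. The male response of Myc exceeded the female one by 0.18 log2, with a 95% interval from -0.48 to 0.84. For Ddx21 the difference was 0.41 (0.00 to 0.82; adjusted p = 0.607). The larger number of male calls is therefore not shown to be a difference between the sexes.

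**Figure D2:**
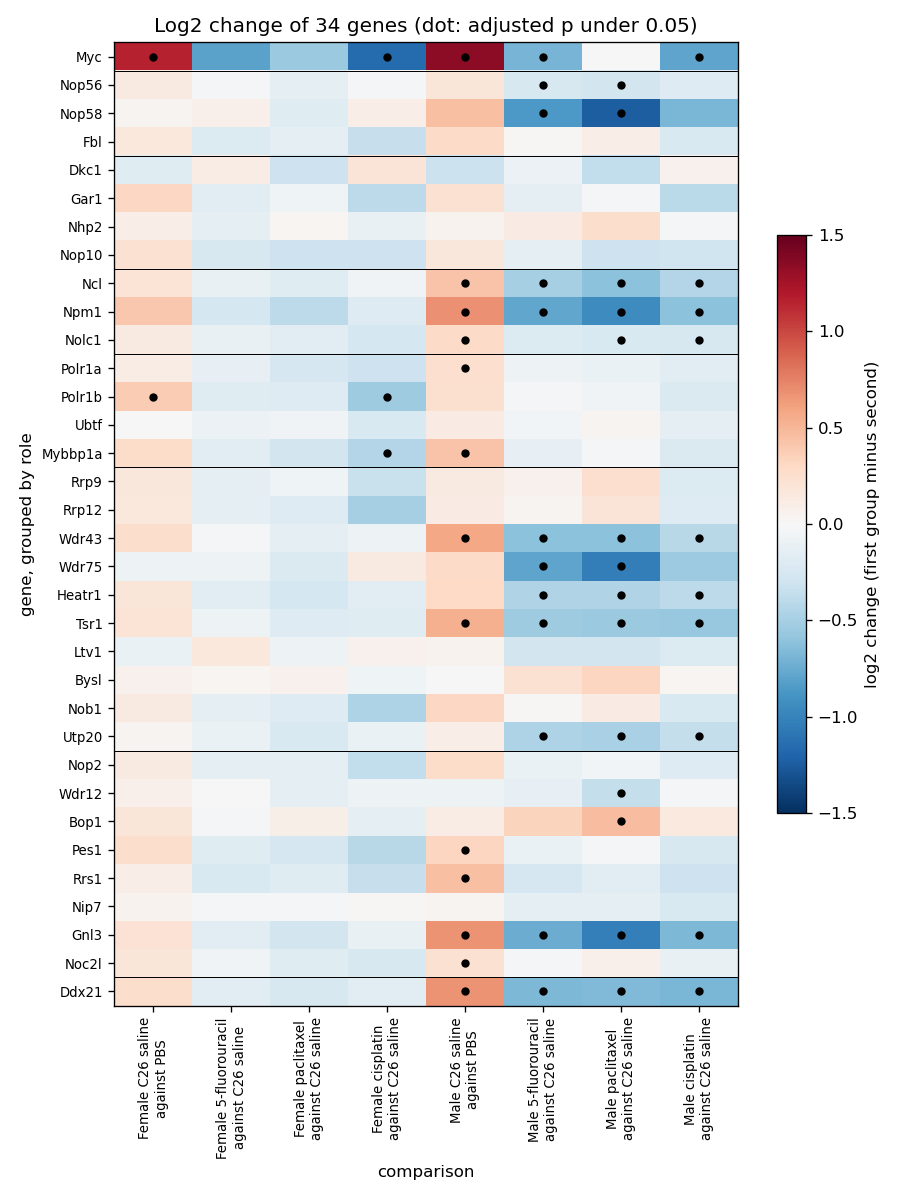
Log2 change of each of the 34 genes (rows, grouped by role) in the 8 main comparisons (columns, females first), as colour from blue (lower) to red (higher) in the first-named arm. Black dots mark adjusted p under 0.05: the dots are densest in the 4 male columns, where 13 members rose with the tumour and 12, 14 and 10 were called against C26 saline in the drug arms.

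The drug arms were each compared with the C26 saline arm of the same sex. These 3 comparisons share their C26 saline libraries, so their values are given side by side and are not independent. The tumour comparison used the same C26 saline libraries, so a rise with the tumour and a fall with a drug are not independent either. In males treated with 5-fluorouracil, 12 members fell and none rose, where 12% of all genes fell and 11.3% rose. With paclitaxel, 13 fell and 1 rose, where 18.5% fell and 13.5% rose. With cisplatin, 10 fell and none rose, where 8.23% fell and 7.66% rose. The median member change was -0.13, -0.16 and -0.23 log2 in that order, against -0.03, -0.01 and -0.04 for all genes.

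Among the nucleolar factors, Npm1 spanned 6.15 to 7.01 in male C26 saline, 5.22 to 6.51 with 5-fluorouracil, 4.84 to 6.15 with paclitaxel and 5.33 to 6.40 with cisplatin. The arms overlapped with 5-fluorouracil and cisplatin, and every paclitaxel library lay below every C26 saline library. Npm1 fell by 0.79 ± 0.19, 0.94 ± 0.20 and 0.62 ± 0.19 log2 (adjusted p = 0.00189, 0.00131 and 0.0161, limma). Ncl fell by 0.50, 0.61 and 0.44. Nolc1 had changes of -0.21, -0.23 and -0.24, called in the last 2 only. These calls held in 6 of 14 (paclitaxel) and 8 of 16 (cisplatin) fits with 1 library left out, and were lost with only the groups compared. Of the large subunit factors, Gnl3, a nucleolar GTPase, spanned 4.20 to 5.35 in C26 saline and 3.43 to 4.62, 3.20 to 4.14 and 3.54 to 4.48 in the drug arms. It fell by 0.75, 1.03 and 0.68, and its paclitaxel libraries lay wholly below C26 saline. Wdr12, a PeBoW protein, fell in the paclitaxel comparison by 0.35, and its paclitaxel libraries also lay below every C26 saline library, as those of 1.16% of all genes did. Bop1, its partner, rose by 0.47 ± 0.18 with paclitaxel (adjusted p = 0.0420), from 4.62 to 5.07 in C26 saline to 4.84 to 5.77. That call held in 6 of 14 fits that left out a library, and was lost without the high-slope libraries and with the GC slope as a covariate.

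Among the small subunit and helicase genes, Ddx21 fell by 0.67 ± 0.14, 0.67 ± 0.15 and 0.68 ± 0.14 log2 with 5-fluorouracil, paclitaxel and cisplatin, to levels of 5.04 to 5.71, 4.96 to 5.99 and 4.95 to 5.68. Wdr43 fell by 0.61, 0.62 and 0.42, and Tsr1 by 0.54, 0.56 and 0.57. Heatr1 and Utp20, which belong to the early processome, fell by 0.45 and 0.46 with 5-fluorouracil, 0.46 and 0.48 with paclitaxel, and 0.40 and 0.36 with cisplatin. Their cisplatin calls held in 8 of 16 (Heatr1) and 9 of 16 (Utp20) fits that left out a library, and were lost with quantile normalization, with only the groups compared and without the high-slope libraries. Without those libraries both also lost their 5-fluorouracil and paclitaxel calls. Wdr75 fell by 0.79 and 1.03 with 5-fluorouracil and paclitaxel and had -0.55 (adjusted p = 0.0782) with cisplatin. In box C/D, Nop58 fell by 0.86 and 1.24 with 5-fluorouracil and paclitaxel, having a level of 3.05 to 4.19 in C26 saline and 1.62 to 3.25 with paclitaxel, and Nop56 fell by 0.24 and 0.27. No box H/ACA or RNA polymerase I member was called in any of the 3. Nop58 had -0.68 with cisplatin (adjusted p = 0.0570).

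**Figure D3:**
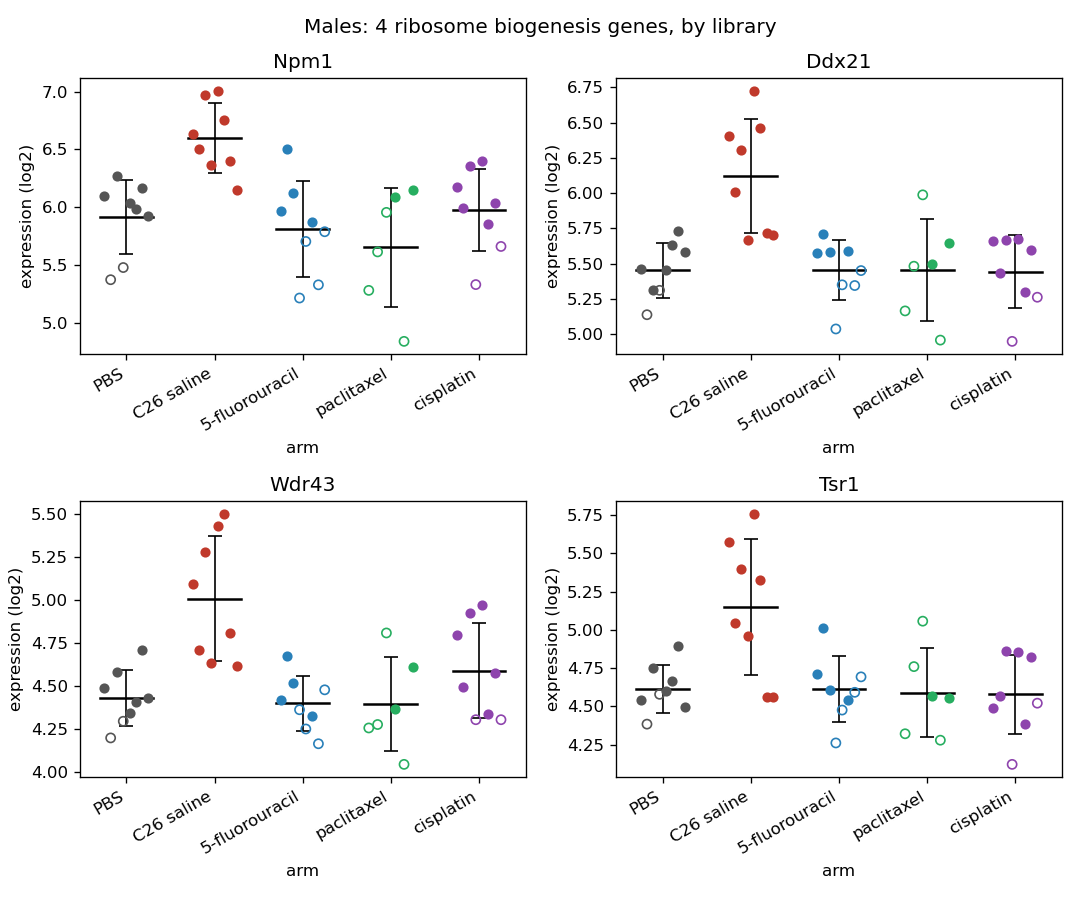
Npm1, Ddx21, Wdr43 and Tsr1 (log2 expression) in each male library by arm. Filled and open points are libraries at or below and above a GC slope of 0.1, bars are means and whiskers SDs. C26 saline means lie above those of the other arms in all 4 panels, and for Npm1 the lowest point of every arm that has open points is an open one.

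The drug arms were not tested against each other for Myc. In males it fell by 0.69 ± 0.23 log2 with 5-fluorouracil (1.13 to 2.87, median 2.26; adjusted p = 0.0202) and by 0.80 ± 0.23 with cisplatin (1.59 to 2.53, median 1.94; adjusted p = 0.00936). With paclitaxel its level was 1.61 to 3.53 (median 2.88) and the change was 0.00, with a 95% interval from -0.49 to 0.49. The 5-fluorouracil call was lost without C26 saline replicate 5 or 6 or 5-fluorouracil replicate 1, or with quantile normalization, and the cisplatin call held in all 7 alternative settings and 16 such fits. In the paclitaxel arm the 4 high-slope libraries had Myc at 2.72, 3.04, 3.53 and 3.30 and the other 2 at 1.61 and 2.62. Without the high-slope libraries the paclitaxel change was -0.69 (adjusted p = 0.218).

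The high-slope libraries also bear on the other male drug results. Without them 9 members fell with 5-fluorouracil, all among the 12, with Heatr1, Nop56 and Utp20 dropping out, where 8.34% of all genes fell, and Myc had -1.07. With cisplatin 18 fell, where 13.3% of all genes did, and 1, Dkc1, rose by 0.24. The 18 held 8 of the 10 first called with cisplatin, without Heatr1 and Utp20. With paclitaxel, where 2 libraries remain, 6 fell: Nop2, Nolc1, Rrs1, Gnl3, Ddx21 and Tsr1, where 2.67% of all genes fell. Npm1 then had -0.48 (adjusted p = 0.0614). With the GC slope as a covariate, 2 members (Nolc1 and Gnl3) and 1.88% of all genes fell with paclitaxel, and Bop1 changed sign to -0.10. The cell markers were counted with all libraries only, for 5-fluorouracil, paclitaxel and cisplatin in that order. Fast skeletal muscle markers rose in 4, 5 and 4 of 10 cases, where 11.3%, 13.5% and 7.66% of all genes rose. Neutrophil markers fell in 6 of 6, 0 of 6 and 6 of 6, where 12%, 18.5% and 8.23% of all genes fell. Their part was not tested.

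In females given cisplatin, 3 of 34 members fell against C26 saline and none rose, where 1.31% of all genes fell and 0.346% rose. Myc ranged from 1.75 to 2.78 in the 6 cisplatin libraries, all below the C26 saline range, and fell by 1.15 ± 0.25 log2 (adjusted p = 0.00543, limma). Polr1b was 3.20 to 3.39 against 3.60 to 4.04, again without overlap, and fell by 0.53 (adjusted p = 0.0128). Mybbp1a, a nucleolar protein that binds MYB, was 6.38 to 6.73 against 6.66 to 7.27 and fell by 0.44 (adjusted p = 0.0284), a call kept in 6 of 13 fits that left out a library. The cisplatin libraries of Polr1a, Rrp12 and Nolc1 also lay below all C26 saline libraries without passing the test. So 5 members were separated downwards, against 1.38% of all genes. Without the 19 high-slope libraries of all arms, 1 of them in this C26 saline arm, 9 members fell, where 3.83% of all genes fell. They now included Polr1a, Pes1, Rrp12, Nob1, Nop10 and Nolc1. Without C26 saline replicate 6 the count was 1, and without replicate 4 it was 5. With all libraries, the summed neutrophil level was 5.09 to 35.2 in C26 saline and 1.37 to 5.24 with cisplatin, and 1 of 6 neutrophil markers fell. The summed macrophage level was 102.1 to 177 and 74.1 to 128.1, with 0 of 7 markers called. The part of these cells was not tested.

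No member was called with 5-fluorouracil or paclitaxel in females. With 5-fluorouracil, 0.152% of all genes rose and 1.2% fell, and Myc had -0.80 (adjusted p = 0.0648), the value that passed (-0.92, adjusted p = 0.0342) without the high-slope libraries. With paclitaxel 0% of all genes was called by limma, while 845 genes had an unadjusted p under 0.05, and Myc had -0.56 with a 95% interval from -1.04 to -0.07. The members' estimates were below 0 in 29, 31 and 29 of 34 for 5-fluorouracil, paclitaxel and cisplatin. Of the members 14.7%, 8.82% and 14.7% were above 0, where 52.3%, 50.1% and 49.6% of all genes were. The 3 comparisons share their C26 saline libraries, so these values are not independent. None of the 3 sex interactions called a member, or any gene (0%); of the members, 9, 6 and 4 had an unadjusted p under 0.05 with 5-fluorouracil, paclitaxel and cisplatin, where 14.8%, 19.5% and 14.4% of all genes did. For Myc the male effect minus the female effect was 0.11 (-0.54 to 0.76) with 5-fluorouracil, 0.56 (-0.13 to 1.24) with paclitaxel and 0.35 (-0.32 to 1.03) with cisplatin.

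The drug arms were then set against tumour-free PBS muscle. In females, no member was called in any drug arm, with 0.383%, 4.58% and 0.209% of all genes called for 5-fluorouracil, paclitaxel and cisplatin. In males, none was called with 5-fluorouracil or cisplatin (4.76% and 0.902% of all genes). Myc with 5-fluorouracil was 0.64 above PBS (adjusted p = 0.0724), and 0.54 with cisplatin. In male paclitaxel 7 members were higher and 5 lower than PBS, where 16.9% and 20.6% of all genes were. Myc was 1.34 higher, and Bop1 (0.58), Nob1 (0.43), Fbl (0.39), Mybbp1a (0.39), Noc2l (0.30) and Pes1 (0.30) were also higher. Nop58 (-0.79), Wdr75 (-0.75), Dkc1 (-0.69), Wdr12 (-0.43) and Utp20 (-0.38) were lower. The 7 higher members had a transcript GC content of 50.2% or more and the 5 lower ones of 46.1% or less. Without the high-slope libraries, which leaves 2 paclitaxel and 6 PBS libraries, no member was called and 10 genes in all were. With the GC slope as a covariate, 2 members stayed or became called, Myc at 1.00 (adjusted p = 0.00453) and Ddx21 at 0.35 (adjusted p = 0.0380). Of all genes 9.32% were called with that covariate. The summed neutrophil level was 1.22 to 11.4 in PBS and 6.79 to 31.0 with paclitaxel. The summed macrophage level was 58.7 to 84.5 in PBS and 93.0 to 216 with paclitaxel, without overlap. The part of these cells was not tested.

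**Figure D4:**
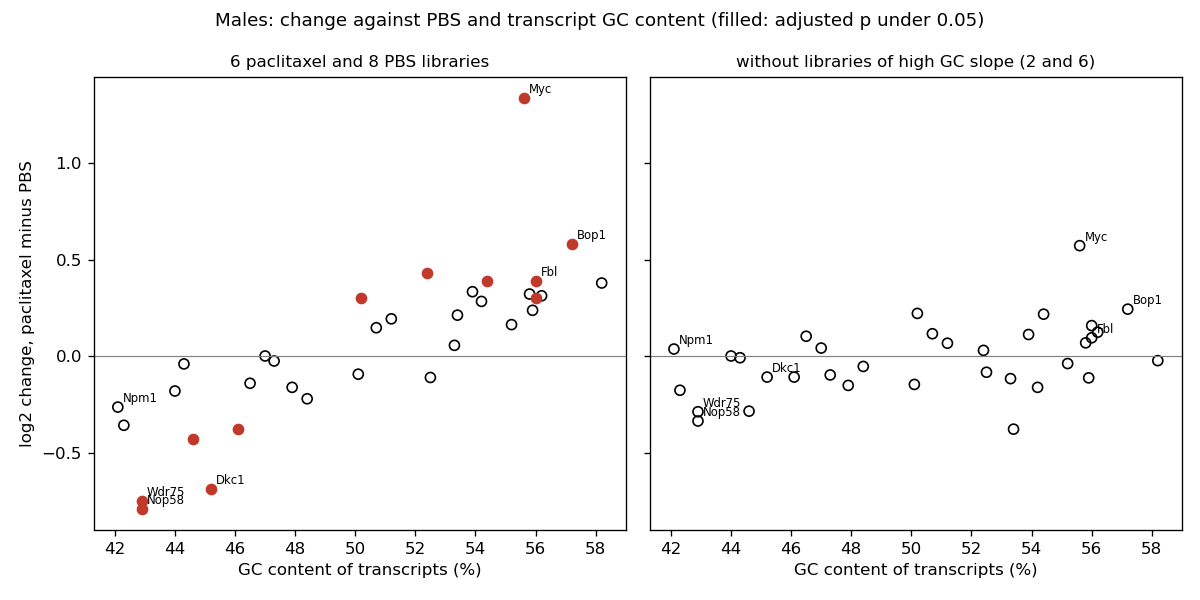
Log2 change of the 34 members, male paclitaxel minus PBS, against the GC content of their transcripts (%), left with all 6 paclitaxel and 8 PBS libraries, right without the high-slope ones. Filled points passed adjusted p under 0.05. On the left the change runs from -0.79 for Nop58 to 1.34 for Myc; on the right no point is filled and Myc has 0.57.

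**Figure D5:**
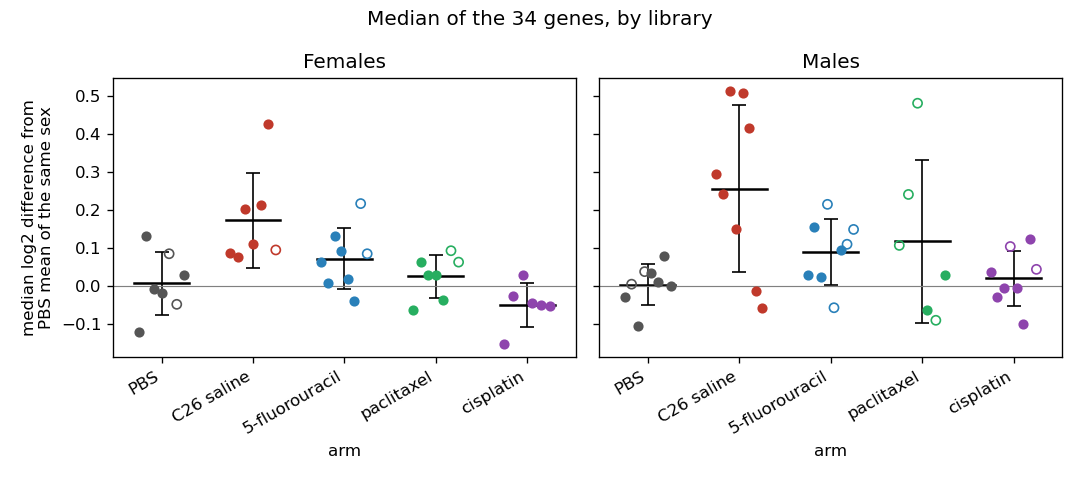
Median log2 difference of the 34 members from the PBS mean of the same sex, in each library by arm, with mean bars and SD whiskers; open points are high-slope libraries. The male C26 saline libraries run from -0.06 to 0.51 and the female ones from 0.08 to 0.43.

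Other genes of the pathway were taken from lists chosen by function. These lists were not counted without the high-slope libraries. In male paclitaxel, 2.67% of all genes fell without those libraries, against 18.5% with them. The large subunit assembly list (42 measured) had 13 risers and 1 faller with the tumour in males, among them Gnl2 (0.56), Las1l (0.52) and Ddx27 (0.69), with a median of 0.20. Of all genes, 13.1% rose and 13% fell there. In females 3 rose (Las1l 0.41, Lyar 0.32, Gnl2 0.30), where 4.14% of all genes did. In the male 5-fluorouracil, paclitaxel and cisplatin arms, 16, 22 and 11 of the 42 fell and 0, 2 and 0 rose. Of all genes, 12%, 18.5% and 8.23% fell there and 11.3%, 13.5% and 7.66% rose. The small subunit list (42 measured) had 7 risers and 1 faller in tumour males, Nop14 rising by 0.56, and 17, 21 and 9 fallers with 1, 3 and 0 risers in the drug arms. Polymerase I genes beyond the members (13 measured) had 2 risers in males, Polr1g and Taf1a, and 1 in females, Polr1d. In the male drug arms 3, 4 and 3 of the 13 fell and none rose. Taf1a, a subunit of the polymerase I selectivity factor, fell by 0.40, 0.63 and 0.44, and the termination factor Ttf1 by 0.44, 0.53 and 0.33. In the RNA polymerase III list, the called genes with the smallest adjusted p in tumour males went both ways. Polr3k (-0.71) and Polr3g (-0.89) fell and Polr3c (0.36) rose. Lists of nuclear exosome and snoRNP assembly genes were also counted and are not described here. Among 13 MYC network genes, Fbxw7, whose ubiquitin ligase marks MYC for destruction, fell with the tumour by 0.83 in females and 0.82 in males. In tumour males Mlxipl also fell by 0.51 and 1 gene rose. Mycn fell there by 1.43 ± 0.50 (adjusted p = 0.0265, limma). Its mean log2 level was low, -1.29 in PBS and -2.72 in C26 saline. Of 21 MYC targets outside ribosome biogenesis, 7 rose and 6 fell in tumour males, Pa2g4 rising by 0.50 and the transferrin receptor Tfrc falling by 3.01. In females Pa2g4 rose by 0.29 and Tfrc fell by 2.12.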

How the data were processed

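The deposited table holds log2 values per gene for each library, normalized by the authors; the submitters' processing notes name FastQC, MultiQC, fastp, Salmon, edgeR, limma and the mm39 (GRCm39) build, without order. The 73 libraries of the 10 groups were analysed; 1 column with conflicting labels was left out, and 1 sample was not analysed here for want of a column. Depths were estimated by taking the lowest value of each library as a gene without reads, with an offset of 0.5 counts. As a check, values under 200 estimated counts were whole within 0.02 for 85.1% to 91.7% of cases.

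Limma 3.58.1 (R 4.3.3) was fitted to all 13856 genes, with trend, Benjamini-Hochberg adjustment over all genes, two-sided, calls at 0.05 and 63 residual degrees of freedom, and was tested on simulated data. GC slopes used 10637 genes. Alternatives covered scaling, a filter, groups fitted, weights, replicate block, each library left out, GC slope and high-slope libraries. Members, lists and the slope limit were chosen with earlier results of these data known. Members were all named, list genes by smallest adjusted p, and per-library ranges for Myc and the leading called members. Every pair of same-numbered libraries correlated above 0.1 (0.16 to 0.80) in the female paclitaxel comparison alone. Libraries with different numbers were not correlated, so this does not show that numbers pair libraries.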

Additional observations from a re-analysis of the deposited data

Results flagged for a closer look

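A library stood apart from the rest of its arm, by Dixon's test, for 22 of 340 pairs of a member and an arm (6.47%), where chance gives about 1 in 20 groups. In female C26 saline replicate 7 (GC slope 0.45) these were low values of Nop58 (1.92, next 3.22), Ncl (6.60), Npm1 (5.39), Dkc1 (3.18), Gnl3 (3.27), Wdr75 (2.42) and Ddx21 (5.05). In male cisplatin replicate 4 (GC slope 0.55) they were low values of Dkc1 (2.80), Nip7 (2.47), Wdr75 (1.58) and Utp20 (2.37) and high values of Rrs1 (4.88) and Nob1 (5.41). Female paclitaxel replicate 6 (GC slope 0.48) had low Nop10 (3.84) and Tsr1 (4.17), and replicate 7 of that arm high Nolc1 (5.38). Female cisplatin had high Ncl in replicate 3 (7.43), low Gar1 in replicate 1 (1.90) and high Mybbp1a in replicate 4 (6.73). High values also stood out for Nop56 in male PBS replicate 7 (5.36) and Ubtf in female PBS replicate 5 (6.08), and a low value for Nip7 in male PBS replicate 6 (3.05).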

How the results depend on the processing

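Counts of members called moved by more than 1.5 times in these cases, the cause of which was not tested. Quality weights also raised the number of all genes called, for example from 928 to 2047 (female tumour), from 187 to 987 and from 230 to 2325 (female 5-fluorouracil and cisplatin) and from 3617 to 5081 (male tumour). With them the counts of members were 4 (female tumour, reported 2), 2 (female 5-fluorouracil, 0), 1 (female paclitaxel, 0), 13 (female cisplatin, 3) and 20 (male tumour, 13). Against PBS they were 1 (female paclitaxel and female cisplatin, 0), 10 (male 5-fluorouracil, 0) and 19 (male paclitaxel, 12). Of all genes, 13.8%, 6.26%, 23.8% and 48.6% passed in these comparisons, in the order named (4.58%, 0.209%, 4.76% and 37.5% in the main fit). For the sex interactions of 5-fluorouracil and paclitaxel the counts were 2 and 11 (0), where 3.29% and 26.8% of all genes passed (0%). With the GC slope as a covariate they were 6 (female tumour), 1 (female 5-fluorouracil), 5 (female cisplatin), 21 (male tumour), 2 (male paclitaxel, 14), 24 (male cisplatin, 10), 1 (female paclitaxel against PBS) and 2 (male paclitaxel against PBS). Without the high-slope libraries they were 5, 1, 9, 21, 6 and 19 for the same first 6, and 1 and 0 against PBS. Female cisplatin gave 6 with quantile normalization and 7 with only the groups compared, where 2.37% and 4.82% of all genes were called. Male cisplatin gave 5 with only the groups compared, where 7.42% of all genes were called. The replicate block gave 1 for the female tumour comparison, as Polr1b was lost, and changed no other count by more than 1.5 times. The replicate numbers were not shown to pair libraries. Leaving out 1 library gave 1 to 2 (female tumour, 1 in 11 of 14 fits), 0 to 1 (female 5-fluorouracil, 1 without its replicate 7), 1 to 5 (female cisplatin), 5 to 12 (male cisplatin, 5 and 6 without C26 saline replicates 5 and 6) and 0 to 3 (male 5-fluorouracil against PBS, 3 without its replicate 1; 1 without its replicate 2 or 3 or PBS replicate 2 or 4). Dkc1 in male 5-fluorouracil against C26 saline reversed to 0.27 (adjusted p = 0.0149), and Bop1 in male paclitaxel against C26 saline to -0.10, both with the GC covariate. Of the alternative values of single members, 5614 had the same outcome as the main fit, 155 became called and 145 lost their call. The 5614 include values that were called in neither fit. With 28 counts at the lowest, depth limits the smallest changes.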

Other observations

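One library is titled as a female C26 saline sample while its treatment label names 5-fluorouracil, and it entered no comparison. Its log2 values were 3.37 for Myc, 6.67 for Npm1, 5.79 for Ddx21 and 4.77 for Wdr43.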
